A study of Homo sapiens with 12 samples.

Results

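The genes described here are the 39 protein-coding *HOX* genes of the human genome, which were taken from a table of 58037 annotated genes by their GENCODE name, consisting of HOX, the cluster letter A to D and a number. *HOXA* has 11 of them on chromosome 7, *HOXB* 10 on chromosome 17, *HOXC* 9 on chromosome 12 and *HOXD* 9 on chromosome 2. Antisense and other noncoding genes of the clusters were not members. Values were measured in HCT116, an epithelial cell line derived from a human colorectal carcinoma that the labels give as wild type. The study treated these cells for 8 h with the solvent DMSO, with 10 μM Nutlin-3a, which releases p53 from MDM2, with 20 nM NVP-2, an inhibitor of the P-TEFb kinase CDK9, or with both compounds, using 3 samples in each of the 4 groups, and sequenced polyadenylated RNA. All 12 columns of the count table held the same value for every gene, since the number of genes that differed between columns was 0. They were therefore counted as 1 sample of 22720718 reads, read from the column named for the first DMSO sample, whose actual treatment is unknown. No treatment effect and no spread between replicates could be measured, and every interval given here covers counting error only.

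*HOX* genes encode transcription factors that bind DNA through a homeodomain and give cells their position along the body axis. Their order on the chromosome follows the order in which they are used, from low-numbered genes in the hindbrain and neck to high-numbered genes in the trunk, the hindgut and the limbs. Genes with the same number in different clusters are paralogs, which descend from the same gene of an ancestral cluster. Adult tissues and the cell lines made from them commonly keep a *HOX* pattern, and Polycomb proteins hold unused parts of the clusters silent whereas MLL proteins keep used parts active. Levels are given as RPKM, which scales read counts by the merged exon length of the gene and by the total count of the sample, so that genes can be compared with each other, and, where so named, as CPM, which scales by the total count alone and has no length term. A gene was called expressed at an RPKM of at least 1, the threshold used in the study.

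Most genes of the *HOXA* and *HOXB* clusters were expressed, whereas *HOXC* was low and *HOXD* was almost without reads. Of the 21 genes of *HOXA* and *HOXB*, 15 had an RPKM of at least 1, compared to 1 of the 18 genes of *HOXC* and *HOXD*. In total, 16 of the 39 genes were expressed (41.0%), which is near the share of 44.6% among all 19629 protein-coding genes, so that the number alone does not set the *HOX* genes apart. At least 10 counts were found for 23 genes (59.0%, against 62.8% of protein-coding genes). With 0 counts there were 10 genes (25.6%, against 24.3% of protein-coding genes), and 13 genes had reads but an RPKM under 1. All 39 genes together had 6013 counts, or 264.6 CPM.

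Summed over its genes, *HOXB* reached an RPKM of 64.0, *HOXA* 38.3, *HOXC* 3.60 and *HOXD* 0.218. *HOXB* thereby held 60.3% of the summed *HOX* RPKM (95% interval of the share 59.0 to 61.6) and *HOXA* 36.1% (34.9 to 37.4). *HOXC* held 3.40% (2.87 to 3.92) and *HOXD* 0.205% (0.0937 to 0.317). The intervals of the 4 clusters did not overlap. The difference between *HOXB* and *HOXA* was the one most affected by *HOXB7*, without which the shares were 50.3% and 45.2%.

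**Figure D1:**
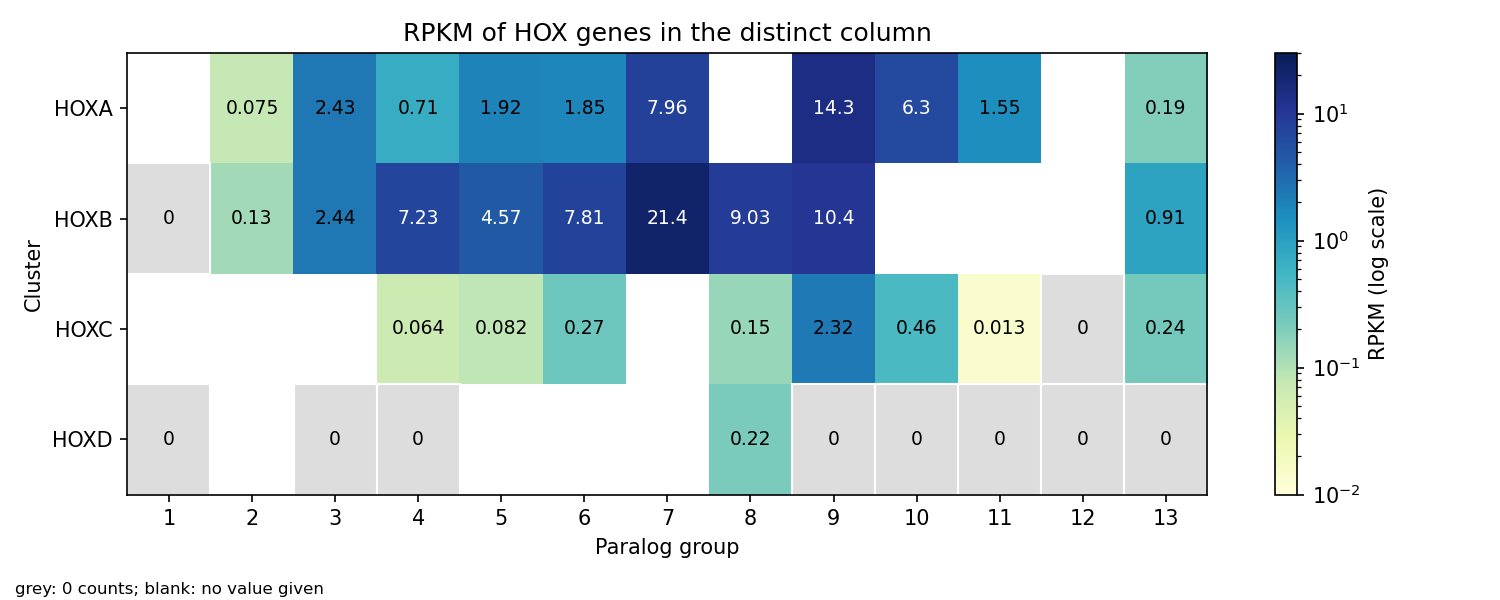
RPKM of the *HOX* genes (number and colour, log scale) by cluster (rows) and paralog group (columns) in the distinct column of the table, with grey cells for 0 counts and blank cells where no value is given. Values of at least 1 fill groups 5 to 11 of *HOXA* and 3 to 9 of *HOXB* wherever a gene exists, up to 21.4 for *HOXB7*, whereas 8 of the 9 *HOXD* cells are 0.

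Within *HOXB*, 7 neighbouring genes from *HOXB3* to *HOXB9* were expressed. The gene model of *HOXB7* lies between 48607232 and 48633572 of chromosome 17 in hg38 on the minus strand, with the canonical transcript start at 48611017. *HOXB7* had 739 counts and an RPKM of 21.4 (95% interval 19.9 to 23.0), the highest of all *HOX* genes. This level was above that of 91.1% of protein-coding genes. *HOXB9* had 614 counts and an RPKM of 10.4 (9.66 to 11.3), and *HOXB8* 493 counts and an RPKM of 9.03 (8.26 to 9.86). These 3 genes occupy the high-numbered end of the main *HOXB* block. *HOXB6* had an RPKM of 7.81 (7.13 to 8.55) and *HOXB4*, known for expanding blood stem cells when overexpressed, an RPKM of 7.23 (6.49 to 8.06). *HOXB5* followed with 4.57 (3.97 to 5.26) and *HOXB3* with 2.44 (2.21 to 2.68). The level of *HOXB3* was 4.30 with its longest transcript as length. At this edge the level fell abruptly, with 411 counts for *HOXB3* and 7 for *HOXB2*, and the RPKM of *HOXB3* was 19.4 times that of *HOXB2* (9.34 to 48.6). *HOXB1*, which specifies a segment of the embryonic hindbrain, had 0 counts. A limit of 3 counts corresponds to an RPKM of 0.0531 for it, and its 95% interval reaches 0.0680.

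At the other end of the cluster, *HOXB13* is separated from *HOXB9* by 98404 bases. *HOXB13* is expressed in the normal prostate and distal colon. It had 63 counts here and an RPKM of 0.912 (0.713 to 1.17), which is 0.0873 times that of *HOXB9* (0.0663 to 0.113). It lay just under the threshold, and its interval includes 1, so that counting error does not place it on either side.

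In *HOXA*, 8 of 11 genes were expressed and each gene had at least 4 counts. *HOXA9*, a regulator of blood stem cells that is commonly overexpressed in leukemia, lies between 27162438 and 27175180 of chromosome 7 on the minus strand. It had 984 counts, the most of any *HOX* gene, and an RPKM of 14.3 (13.4 to 15.2). On either side of it, *HOXA7* had 436 counts and an RPKM of 7.96 (7.25 to 8.74) and *HOXA10*, which is required in the uterus, 531 counts and an RPKM of 6.30 (5.79 to 6.86). Further out the levels were lower, both towards *HOXA6* (54 counts, RPKM 1.85, 1.42 to 2.41) and *HOXA5* (75 counts, RPKM 1.92, 1.53 to 2.41), and towards *HOXA11* (94 counts, RPKM 1.55, 1.27 to 1.90). The 6 genes from *HOXA5* to *HOXA11* formed an unbroken run of 44181 bases. *HOXA3*, which is needed for thymus and parathyroid formation, was expressed with 238 counts and an RPKM of 2.43 (2.14 to 2.76). By number it lies outside this run, but its gene model reaches into the run. Its canonical transcript start, at 27152583, lies between *HOXA6* and *HOXA7*. Between *HOXA3* and *HOXA5* in number, *HOXA4* had 28 counts and an RPKM of 0.713 (0.493 to 1.03). *HOXA2*, a patterning gene of the hindbrain and the second pharyngeal arch, had 4 counts, and *HOXA13*, which acts in the hindgut and the digits, 22 counts and an RPKM of 0.191 (0.126 to 0.289).

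**Figure D2:**
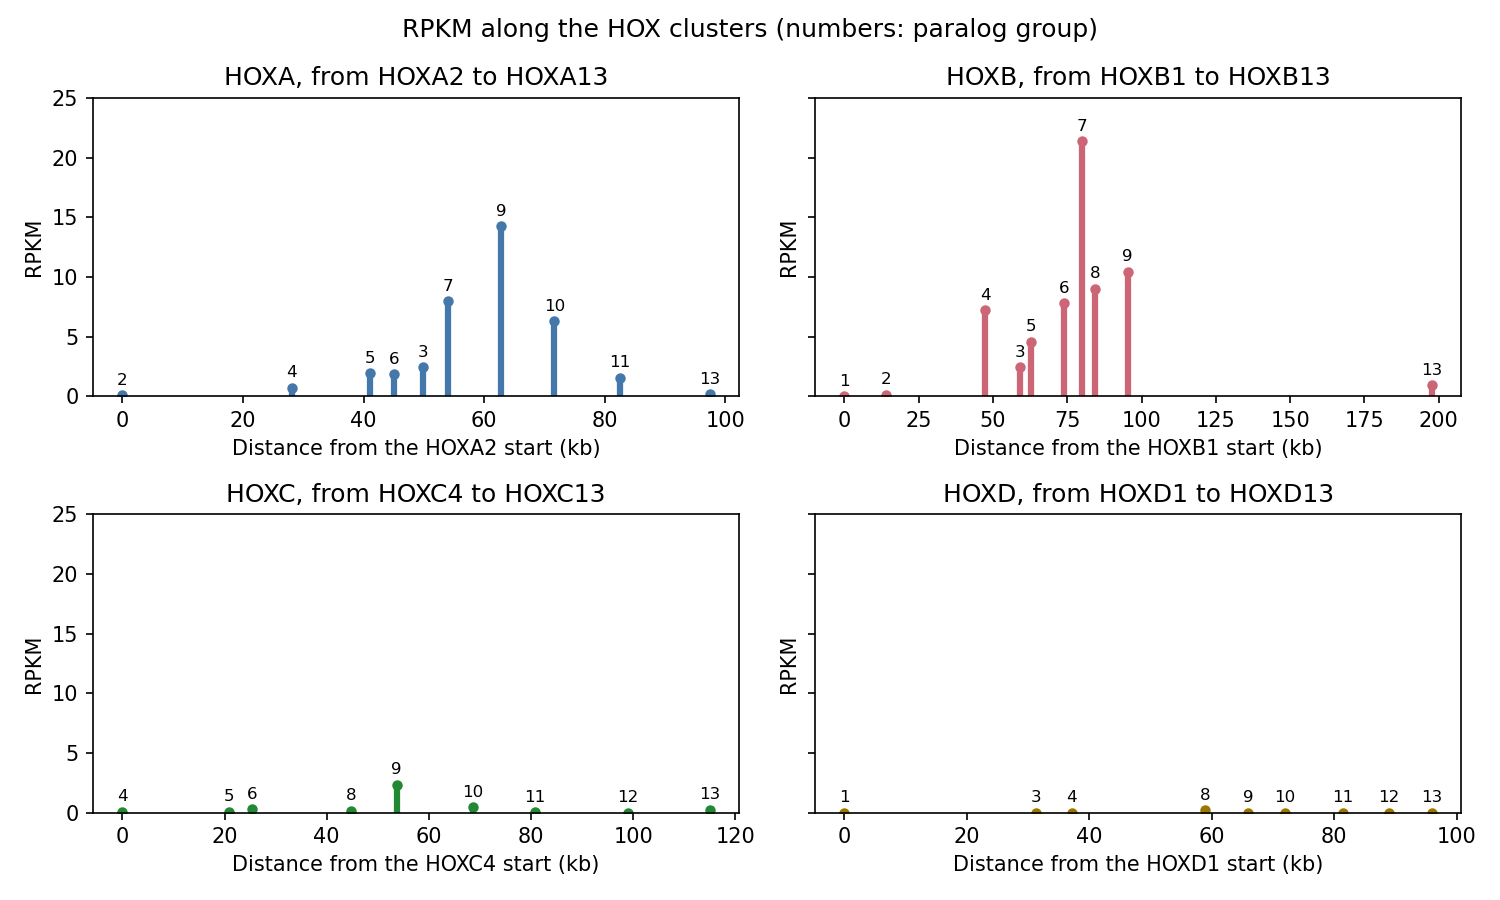
RPKM of the *HOX* genes (vertical axis, linear) against the distance of its canonical transcript start from that of the lowest-numbered gene plotted (horizontal axis, kb), 1 panel per cluster, with the paralog group above each point. The values peak at *HOXA9* and *HOXB7* inside their clusters and are low at both ends, and the canonical start of *HOXA3* lies beyond those of *HOXA5* and *HOXA6*.

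Along each cluster, neighbouring genes often differed by more than counting error. From *HOXB3* to *HOXB9* the ratio of each gene to the one before it left out 1 in every step, from 0.422 times between *HOXB7* and *HOXB8* (0.376 to 0.473) to 2.97 times between *HOXB3* and *HOXB4* (2.56 to 3.44). The smallest of these steps was that from *HOXB8* to *HOXB9*, at 1.16 times (1.03 to 1.31), and with the longest transcript as length it was 1.05 times (0.929 to 1.18), which includes 1. From *HOXA5* to *HOXA6* the ratio was 0.964 (0.666 to 1.39), which includes 1. It then rose 4.30 times to *HOXA7* (3.24 to 5.82) and 1.79 times to *HOXA9* (1.60 to 2.01), and fell to 0.442 times at *HOXA10* (0.397 to 0.491), 0.246 times at *HOXA11* (0.195 to 0.307) and 0.123 times at *HOXA13* (0.0737 to 0.198). These ratios take the exon length of each gene as exact, which it is not where genes have several transcripts.

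*HOXC* had a single expressed gene. *HOXC9*, which takes part in setting the columns of spinal motor neurons, had 88 counts and an RPKM of 2.32 (1.89 to 2.86). Its neighbours were lower, with 8 counts for *HOXC8* and 25 counts for *HOXC10* (RPKM 0.464, 0.314 to 0.685), and the RPKM of *HOXC9* was 16.0 times that of *HOXC8* (7.75 to 38.1). *HOXC6* had 21 counts and *HOXC13*, a hair follicle gene, 13. *HOXC4* had 4 counts, *HOXC5* 3 and *HOXC11* 1. *HOXC12* had 0 counts, which allows an RPKM of up to 0.0404.

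In *HOXD*, *HOXD8* was the exception with 13 counts and an RPKM of 0.218 (0.127 to 0.372). *HOXD1*, *HOXD3*, *HOXD4*, *HOXD9*, *HOXD10*, *HOXD11*, *HOXD12* and *HOXD13* all had 0 counts. A limit of 3 counts for each of them, or 0.132 CPM at this depth, corresponds to an RPKM between 0.0357 for *HOXD3* and 0.116 for *HOXD4*. *HOXD10* to *HOXD13* pattern the limbs and the genital region, where mutations of *HOXD13* cause fused digits. Transcripts of these genes were thus not detectable at this depth. As RNA of whole cultures was measured, fewer cells with a transcript and less of it per cell cannot be told apart for the low genes.

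Promoter sequences were compared for the genes with a RefSeq entry, since long CpG-rich stretches are known to mark *HOX* promoters in both their active and their Polycomb-bound state. RefSeq gave a window in GRCh38.p14 for 20 of the 39 genes, among them 6 expressed genes, all in *HOXA*, and 8 *HOXD* genes. Genes without a window included *HOXA5*, *HOXB2* to *HOXB9*, *HOXB13*, *HOXC6*, *HOXC8* to *HOXC13* and *HOXD9*. The windows of *HOXC4* and *HOXC5* are the same sequence, which lies 36947 and 16162 bases from their canonical starts and is annotated as UTR throughout. Shown are the 250 bases before the start, 5′ to 3′ on the strand of the gene and with each CpG in capitals, of the expressed genes *HOXA9* and *HOXA10*, and of 3 *HOXD* genes with 0 counts that differ in their CpG number.
HOXA9, chr7:27165538-27165787, strand minus: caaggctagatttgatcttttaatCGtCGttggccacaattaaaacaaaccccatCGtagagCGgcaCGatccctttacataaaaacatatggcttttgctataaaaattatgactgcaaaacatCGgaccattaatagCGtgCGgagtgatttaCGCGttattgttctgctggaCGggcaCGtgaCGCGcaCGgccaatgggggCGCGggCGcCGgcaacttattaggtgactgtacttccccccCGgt
HOXA10, chr7:27174321-27174570, strand minus: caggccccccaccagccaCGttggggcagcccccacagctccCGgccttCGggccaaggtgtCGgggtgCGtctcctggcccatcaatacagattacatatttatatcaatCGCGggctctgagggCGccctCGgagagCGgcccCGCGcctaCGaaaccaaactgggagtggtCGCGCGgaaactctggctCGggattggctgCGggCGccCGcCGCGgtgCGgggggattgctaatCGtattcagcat
HOXD13, chr2:176092471-176092720, strand plus: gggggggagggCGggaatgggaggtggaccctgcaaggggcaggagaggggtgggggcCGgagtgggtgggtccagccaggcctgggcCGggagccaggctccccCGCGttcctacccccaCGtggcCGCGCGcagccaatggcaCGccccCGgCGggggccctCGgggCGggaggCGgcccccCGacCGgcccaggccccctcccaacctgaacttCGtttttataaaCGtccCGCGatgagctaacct
HOXD10, chr2:176116528-176116777, strand plus: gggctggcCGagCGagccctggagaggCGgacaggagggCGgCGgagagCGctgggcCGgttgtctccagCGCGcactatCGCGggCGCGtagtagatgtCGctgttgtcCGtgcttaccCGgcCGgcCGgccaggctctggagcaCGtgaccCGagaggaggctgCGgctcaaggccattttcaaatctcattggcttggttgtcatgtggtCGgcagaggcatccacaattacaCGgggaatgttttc
HOXD4, chr2:176151300-176151549, strand plus: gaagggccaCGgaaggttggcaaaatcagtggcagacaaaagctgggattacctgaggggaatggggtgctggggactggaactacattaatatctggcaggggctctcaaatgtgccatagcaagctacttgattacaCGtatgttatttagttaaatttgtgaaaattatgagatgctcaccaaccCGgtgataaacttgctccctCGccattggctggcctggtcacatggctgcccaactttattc
The expressed *HOXA9* had 20 CpGs and *HOXA10* 24 in this window, whereas *HOXD13* with 0 counts had 21, *HOXD10* 23 and *HOXD4* 4. The ratio of observed to expected CpGs was 1.34 for *HOXA9*, 0.903 for *HOXA10*, 0.618 for *HOXD13*, 0.923 for *HOXD10* and 0.287 for *HOXD4*. Over the 6 expressed genes with a window the median was 22 CpGs (range 11 to 28), and over the 14 genes under the threshold it was 21 (range 4 to 40). A ratio of at least 0.6 was found for 6 of these 6 and 12 of these 14 windows, compared to 47.5% of the 35114 windows of all genes. Without the window of *HOXC4* and *HOXC5* it was 10 of 12. CpG content therefore did not separate expressed from unexpressed *HOX* genes in these windows, while the median of both kinds was above that of all genes, which was 11. *HOXB1*, with 7 CpGs, and *HOXD4* were the 2 windows with a ratio under 0.6, and both genes had 0 counts. The letters TATAAA were found on either strand in 4 of the 20 windows, namely those of *HOXA3*, *HOXA9*, *HOXA10* and *HOXD13*, and in 10.7% of the windows of all genes.

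By paralog group, the summed RPKM was highest in group 7 with 29.4, made up of *HOXB7* and *HOXA7*, and in group 9 with 27.1, made up mostly of *HOXA9* and *HOXB9*. Together these groups held 27.7% and 25.5% of the summed *HOX* RPKM, respectively. Group 6 summed to 9.93, group 8 to 9.39 and group 4 to 8.01. At the ends of the series, groups 2, 12 and 13 held no expressed gene, with 11 counts in group 2, 0 counts in both genes of group 12 and a summed RPKM of 1.35 over the 4 genes of group 13. Groups 1 to 3 were taken as anterior, 4 to 8 as central and 9 to 13 as posterior. In these classes 3 of 8, 8 of 15 and 5 of 16 genes were expressed, against 44.6% of protein-coding genes. The classes held 5.76%, 59.6% and 34.6% of the summed RPKM. The balance differed between clusters, as central genes held 78.2% of the *HOXB* sum and posterior genes 17.8%, whereas posterior genes held 58.3% of the *HOXA* sum and central genes 32.5%.

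Paralogs were compared within groups. In group 3 the RPKM of *HOXB3* was 1.00 times that of *HOXA3* (0.852 to 1.18) with merged exons as length, but 1.34 times (1.14 to 1.58) with the longest transcript and 1.39 times (1.18 to 1.64) with the coding sequence, so that their order depends on the length. In groups 4 to 7 *HOXB* was above *HOXA*. *HOXB4* exceeded *HOXA4* by 10.1 times (6.89 to 15.5), *HOXB6* exceeded *HOXA6* by 4.22 times (3.18 to 5.71), *HOXB5* exceeded *HOXA5* by 2.38 times (1.81 to 3.15) and *HOXB7* exceeded *HOXA7* by 2.69 times (2.39 to 3.03). In group 9 the order was turned, with *HOXA9* at 1.37 times *HOXB9* (1.23 to 1.51) and 6.14 times *HOXC9* (4.93 to 7.73). In groups 10 and 11 *HOXB* has no gene, and *HOXA10* exceeded *HOXC10* by 13.6 times (9.10 to 21.2). In group 13 *HOXB13* was 4.78 times *HOXA13* (2.90 to 8.16) and 3.76 times *HOXC13* (2.05 to 7.45), all 3 of them under the threshold, while *HOXD13* had 0 counts.

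**Figure D3:**
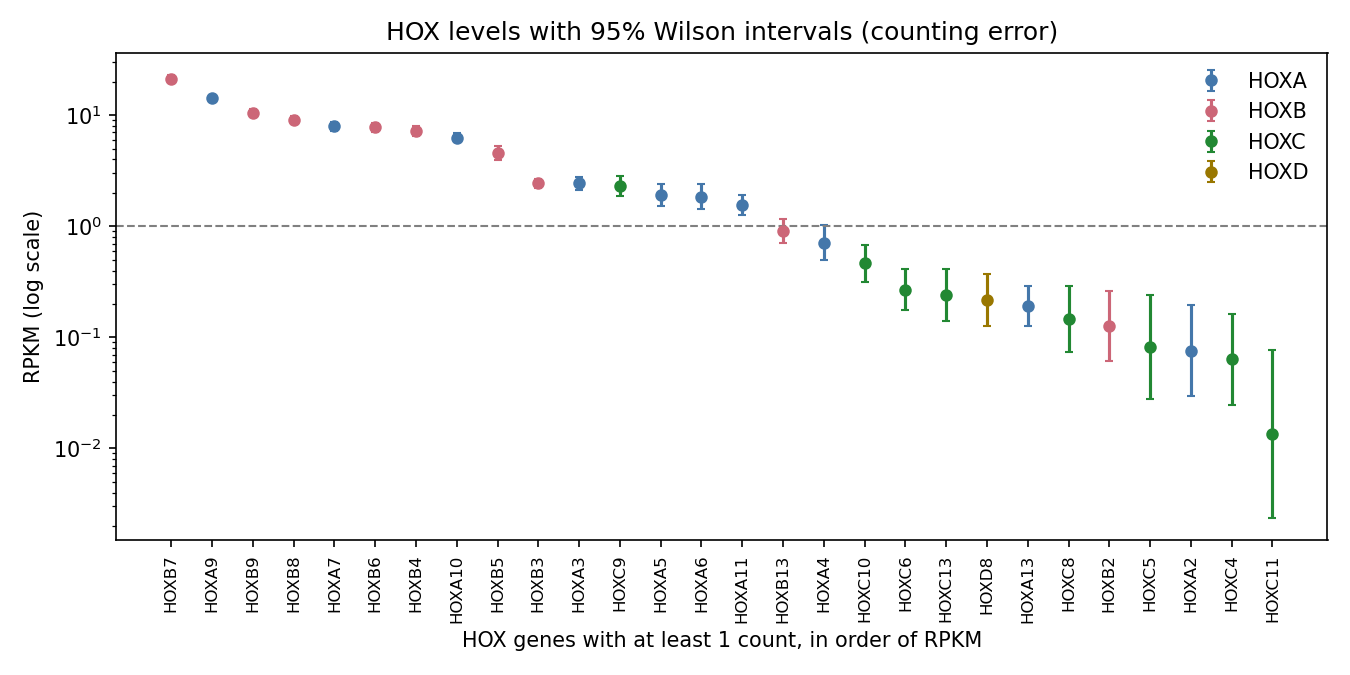
RPKM (log scale) of the reported *HOX* genes with at least 1 count, in order and coloured by cluster, with 95% Wilson intervals of the counts as bars and the threshold of 1 as a dashed line. The first 11 places are taken by *HOXA* and *HOXB* genes, and the intervals widen where the counts are few.

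In the order of levels, the 3 highest genes held 43.5% of the summed RPKM and the 8 highest 79.6%. Of the 28 pairs of neighbours in this order, 6 differed beyond counting error and 22 did not. With merged exons as length, the first 4 places, *HOXB7*, *HOXA9*, *HOXB9* and *HOXB8*, were separated from each other in this sense, with *HOXB7* at 1.499 times *HOXA9* (1.36 to 1.65). Much of this order depends on the length. With the coding sequence *HOXA9* had 53.1 and *HOXB7* 50.0 RPKM, and their ratio included 1. *HOXB6* took the fourth place with the longest transcript (10.4 RPKM), with unshared exon bases (9.37) and with the coding sequence (30.3). *HOXB7*, *HOXA9* and *HOXB9* held the first 3 places under each of these 4 lengths. With merged exons, from *HOXB8* through *HOXA7*, *HOXB6* and *HOXB4* to *HOXA10*, each gene could not be told from the next, and the same held from *HOXB3* through *HOXA3*, *HOXC9*, *HOXA5* and *HOXA6* to *HOXA11*. Under the other lengths some of these pairs did differ, such as *HOXB6* at 1.43 times *HOXB4* (1.24 to 1.66) with the longest transcript, and of the 28 pairs 22 kept their call with the longest transcript, 25 with unshared bases and 21 with the coding sequence. The median RPKM of the 16 expressed *HOX* genes was 5.44, compared to 6.03 for all protein-coding genes with an RPKM of at least 1, and 8 *HOX* genes were above this value.

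Overlapping gene models limit what can be assigned to single *HOX* genes. A read that falls on exons of several genes of the same strand cannot be given to one of them, and 16 of the 39 genes share exon bases in GENCODE v44 with another gene on their strand. The share was 67.3% of the exon bases for *HOXC5*, 31.3% for *HOXA4*, 21.4% for *HOXD11*, 16.6% for *HOXB6* and 15.9% for *HOXA9*. The gene model of *HOXA3*, from 27106184 to 27152583, also spans *HOXA4*, *HOXA5* and *HOXA6*. That of *HOXB7* spans *HOXB8* and *HOXB9*, and that of *HOXB3* spans *HOXB4* and *HOXB5* and overlaps *HOXB6*. A readthrough gene that overlaps *HOXA9* and *HOXA10* (ENSG00000257184) was listed at 0 counts. So was one that overlaps the gene models of *HOXC4* to *HOXC10* (ENSG00000273049) and ends before the canonical start of *HOXC4*. Dividing by the unshared bases alone, *HOXA4* rose from an RPKM of 0.713 to 1.04 and *HOXA9* from 14.3 to 17.0. At the read length of 75 bases, 0 of the 100958 distinct stretches of that length in *HOX* transcripts occurred without mismatch in annotated transcripts of a gene elsewhere. Matches with mismatches and copies outside annotated transcripts were not searched.

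Among the noncoding genes of the clusters, 22 of the 24 listed were in the table and 3 had an RPKM of at least 1. The share of all noncoding genes at this level was not computed. *HOXA10-AS*, which lies opposite the *HOXA9* and *HOXA10* genes, had 308 counts and an RPKM of 8.20 (7.33 to 9.16), and *HOTAIRM1*, at the low-numbered end of *HOXA*, had 67 counts and an RPKM of 1.97 (1.55 to 2.50). The counts were made by strand, so that these reads are separate from those of the coding genes. The hairpin of *MIR196A1* exceeded the threshold with 2 counts because it is short, and mature miRNAs are not measured in such libraries. *HOTAIR*, a transcript of the *HOXC* cluster, had 1 count, and *HOTTIP*, which lies beyond *HOXA13*, had 0. In the *HOXD* cluster *HOXD-AS2*, whose gene model spans *HOXD8* and *HOXD9* on the opposite strand, had 16 counts and *HAGLR* 0.

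Of the 13 genes listed next to the clusters, 8 had an RPKM of at least 1, against 44.6% of protein-coding genes. *MTX2* and *LNPK*, which flank *HOXD*, had RPKM values of 12.05 and 2.69, and *CBX5* and *SMUG1* on the side of *HOXC4* had 13.9 and 1.99. *CALCOCO1*, on the side of *HOXC13*, had 1.83. Both *SMUG1* and *CALCOCO1* were below *HOXC9*, at 2.32. In contrast, *EVX1* and *EVX2*, homeobox genes at the high-numbered ends of *HOXA* and *HOXD*, had 0 counts each, and the prostate and colon genes *PRAC1* and *PRAC2* beside *HOXB13* had 1 and 0 counts. *TTLL6*, on the side of *HOXB13*, had an RPKM of 0.121.

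HOX proteins bind DNA together with TALE homeodomain proteins of the PBX, MEIS and PKNOX families. Of the 9 such genes, 3 had an RPKM of at least 1, against 44.6% of protein-coding genes, *PBX2* with 8.35 (7.80 to 8.94), *MEIS3* with 2.40 (2.14 to 2.703) and *PKNOX1* with 1.20 (1.04 to 1.37). *PBX3* had 0.897 (0.738 to 1.09), and *MEIS1*, the partner of *HOXA9* in leukemia, had 0 counts. None of the 8 ParaHox and EVX genes reached the threshold, against the same 44.6%. *CDX2*, the intestinal ParaHox gene that activates central *HOX* genes in the embryo, had 65 counts and an RPKM of 0.813 (0.638 to 1.04), and *CDX1* had 0 counts.

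**Figure D4:**
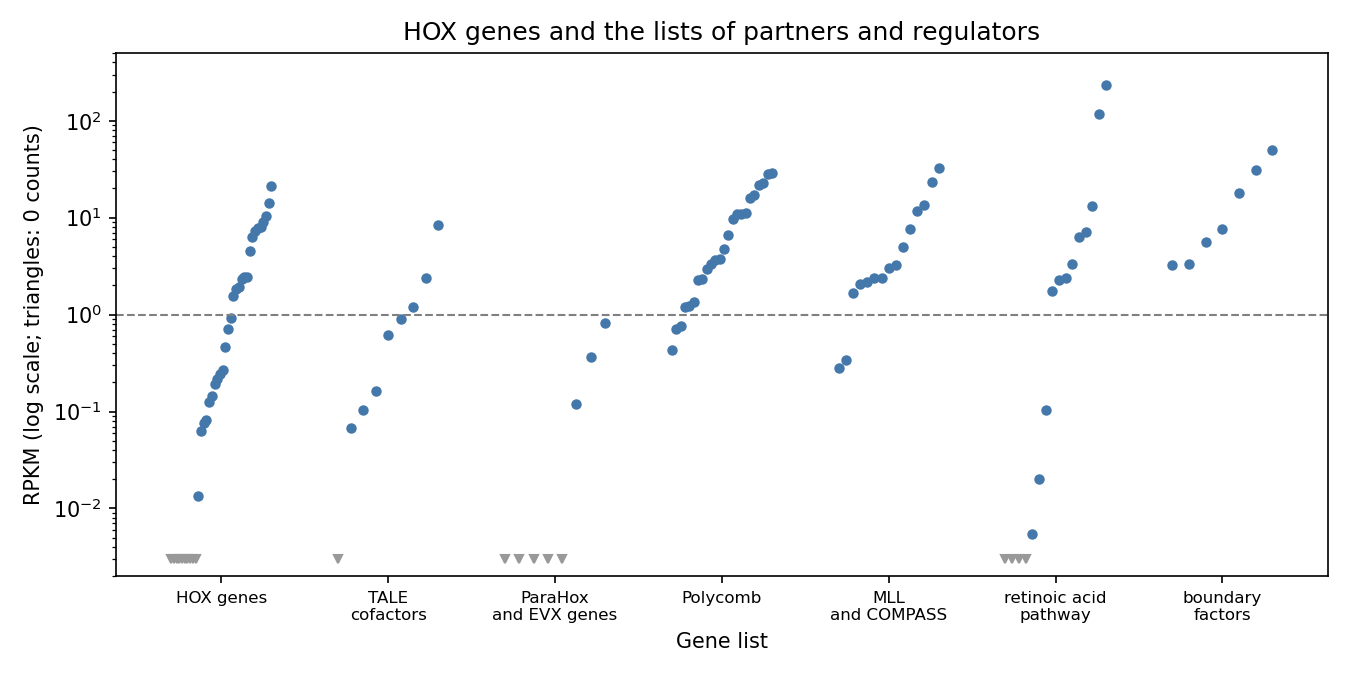
RPKM (log scale) of the *HOX* genes and of the genes of 6 lists of partners and regulators, each point 1 gene, with triangles for genes with 0 counts and the threshold of 1 as a dashed line. All 7 boundary factors lie above the line, and all 8 ParaHox and EVX genes below it.

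Of the genes that maintain *HOX* states, 21 of 24 Polycomb genes had an RPKM of at least 1, against 44.6% of protein-coding genes. The same held for 13 of 15 genes listed with MLL and COMPASS. This second list also holds genes outside these complexes, such as *ASH1L*, *DOT1L* and *KDM6B*. *EZH2*, *EED* and *SUZ12*, which form the core of the complex that methylates histone H3 at silent *HOX* genes, had RPKM values of 4.73, 1.34 and 10.8. *KMT2A*, which encodes MLL1, had 2.16, and its partners *MEN1* and *PSIP1* had 11.6 and 23.1. The insulator protein gene *CTCF*, whose binding sites divide *HOX* clusters, had an RPKM of 3.33, and all 7 boundary factors were expressed. Retinoic acid induces *HOX* genes in the embryo, and 9 of its 16 pathway genes were expressed, against the same 44.6%. *ALDH1A3*, an enzyme that makes retinoic acid, was the highest of them with 28389 counts and an RPKM of 234.2, above 99.3% of protein-coding genes, and the binding protein gene *CRABP2* had 116.4. The receptors *RARG* and *RARA* had 6.32 and 3.32, whereas *RARB*, itself a retinoic acid target, had 0 counts.

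The label of the cells was compared with marker genes. All 6 epithelial markers had an RPKM of at least 1, against 44.6% of protein-coding genes, among them *EPCAM* with 181.6 and *KRT8* with 514.2. None of the 7 markers of colon epithelium did, with *KRT20* at 0.851, *VIL1* at 0.0255 and *LGR5* and *GPA33* at 0 counts. None of the 12 fibroblast, leukocyte and endothelium markers reached the threshold either, and *COL1A1* was the highest of them at 0.972 (0.846 to 1.12). This was above each marker of colon epithelium. The intervals of *COL1A1*, *KRT20* (0.618 to 1.17) and *CDX2* (0.638 to 1.04) include 1, so that counting error does not place these genes on either side. The profile was thus epithelial by these markers, but the markers of colon epithelium were low or had no reads.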

How the data were processed

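Polyadenylated RNA of HCT116 cells was sequenced from 12 samples, 3 in each of 4 groups. According to the study's methods, the authors mapped the reads to hg38 with ContextMap and BWA and counted them per gene by strand with featureCounts and GENCODE version 25. The deposited table holds these raw counts, without normalization, and each column was assigned by its name. Identical columns were counted as 1 sample of 22720718 counts, so that no test between groups was run.

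Identifiers were matched without version suffix to GENCODE v44, which was used for lengths and positions in hg38, since version 25 was not used here; 56948 of 57992 matched, with 99.8% of the counts. CPM refers to the column total and RPKM to the merged exon length. Intervals are 95% Wilson intervals, exact binomial intervals for ratios of counts, and delta-method intervals for shares, and they were tested on simulated data. A count of 0 was given a limit of 3 counts, or 0.132 CPM, which is lower than the upper bound of its Wilson interval, 0.169 CPM. All genes with an RPKM of at least 1, the 3 next below and those with 0 counts were to be named, except that the values of 1 gene are not reported here, although it is part of the sums and counts. The members and lists were chosen with earlier results of these data known. Python 3.11.15 and scipy 1.17.1 were used.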

Additional observations from a re-analysis of the deposited data

How the results depend on the processing

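The number of expressed *HOX* genes, 16 as reported, was between 12 and 23 under the other settings. It was 12 at an RPKM of at least 2, 18 at 0.5, 19 with a CPM of at least 1 and 23 with at least 10 counts. It was 17 with unshared exon bases as length, where *HOXA4* was added, and also 17 with a total without mitochondrial genes or of protein-coding genes, where *HOXB13* was added, and 20 with the coding sequence as length. The number of genes with 0 counts rose from 10 to 12 when up to 3 counts were allowed. The *HOXB* share of the summed RPKM, 60.3% as reported, was 56.6% with the longest transcript, 58.6% with unshared bases, 58.9% with bases unshared among genes of the table (chosen after the data were seen), 58.3% with the coding sequence, 55.1% in raw counts and 50.3% without *HOXB7*. In the same order, the *HOXA* share, 36.1% as reported, was 40.1%, 37.7%, 37.4%, 38.8%, 42.0% and 45.2%. The *HOXC* share, 3.40% as reported, was 2.76% with the coding sequence, 2.71% in raw counts and 4.25% without *HOXB7*. *HOXB* was above *HOXA*, and both were above *HOXC* and *HOXD*, under each of these settings. Of the 16 expressed genes and the 3 next below, 8 left their counting interval with the longest transcript, 4 with unshared bases and all 19 with the coding sequence. The ratios between genes under these lengths were added after the data were seen. The other columns gave these same values, as they are copies. No paired analysis was possible because the table has 1 distinct column, and for the same reason leaving out a replicate was not run. At this depth 3 counts correspond to 0.132 CPM, the limit given for genes with 0 counts.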
